A study of Danio rerio with 12 samples.

Results

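Adult zebrafish kidney cells positive for gata2a and runx1 were compared after co-culture with stroma plus IWR-1-endo and thrombopoietin (Thpo) and without any culture. The libraries were chosen by their titles, 2 treated and 2 uncultured, which makes 4 of the 12 libraries in the series. All come from adult wild type fish and are labelled as sorted from the kidney. The treated cells were grown with ZKS cells, a name also used for a stromal line from zebrafish kidney, in the presence of both agents. Another group of 2 libraries, grown with ZKS cells without the agents, is shown beside the comparison as the co-cultured libraries, and 2 libraries of ZKS cells describe the stroma. Doses, the length of culture, the marker alleles used for sorting and the number of fish behind a library were not stated in the labels, so the spread between replicates may be technical. The uncultured cells lack the stroma, the time in culture and both agents. Stroma and time in culture cannot be told apart from one another, nor can the 2 agents, and the co-cultured libraries show levels with stroma and without the agents.

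Thpo is a cytokine that signals through Janus kinases and STAT factors and is known for supporting blood stem cells and the thrombocyte lineage. IWR-1-endo inhibits tankyrases, which stabilises Axin, so that beta-catenin is degraded and the Wnt response of the cell is blocked. Gata2 and Runx1 are transcription factors of blood stem and progenitor cells, and the kidney marrow is the main adult blood-forming tissue of fish.

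The libraries were made by oligo-dT priming, poly-A tailing and PCR from sorted cells, without molecular identifiers. Values are CPM as deposited, read counts scaled to a common total per library, and depth is unknown. Genes above 0 numbered 9712 and 9541 in the uncultured libraries and 7834 and 7329 in the treated ones, and the co-cultured libraries held 7553 and 7676. Of 49 genes used by nearly every cell, 5 and 5 were listed at 0 in the uncultured and 7 and 8 in the treated libraries, so a value of 0 means only that a gene is listed at 0. Dropout between replicates was large. Of 5321 genes at 10 CPM or more in uncultured replicate 1, 1078 were under 1 CPM in replicate 2, and 1394 of 4094 in the treated pair. Across 7567 genes, log2 values correlated at 0.57 between the uncultured, 0.41 between the treated, and 0.38 to 0.40 between treated and uncultured libraries.

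The genes behind the sort did not separate the groups in one direction. The gata2a gene (GATA2, ENSDARG00000059327) was at 45.3 and 177.5 CPM in the uncultured, 33.1 and 127.9 CPM in the co-cultured, and 319.8 and 9.1 CPM in the treated libraries. The treated replicates lay on either side of the uncultured ones. RUNX1 was at 6.3 and 6.1 CPM in the uncultured libraries and was listed at 0 in both treated libraries and at 0.1 and 0 CPM in the co-cultured ones. The runx1 transcript was thus at or near 0 after culture in libraries labelled runx1+, and whether the cells were sorted again after culture is not stated. Other genes of the same lineage were present in every library: gata2b was at 325.2 and 85.5 CPM uncultured and at 431.9 and 134.4 CPM treated, and MYB, a factor needed for definitive blood stem cells, at 146.1 and 176.3 CPM and at 226.8 and 315.4 CPM. KIT, the stem cell factor receptor, was listed at 0 in all 6 libraries.

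Stromal transcripts from the co-culture were near absent. Of 45 stromal markers, 12 were at 100 CPM or more in both ZKS libraries, where they summed to 37120 and 33120 CPM. Of those 12, 11 were listed at 0 in each treated library. The exception was MMP2, a matrix metalloproteinase, at 29.1 and 343.6 CPM treated, while the 12 genes together summed to 20.7 and 70.8 CPM in the uncultured libraries. The macrophage markers IRF8, csf1ra, MFAP4 and marco were at 130.5, 58.1, 16.6 and 14 CPM in uncultured replicate 2 and listed at 0 in the other 5 libraries. In that library 18 of 31 macrophage markers reached 1 CPM, against 5 to 7 in the others, and the sums over the list were 4207 and 5440 CPM uncultured and 8099 and 5898 CPM treated. Most of each sum was the single gene cd74a, at 2883.9 and 3262.1 CPM uncultured and 6314.3 and 4652.9 CPM treated. The sums therefore do not measure the list as a whole. The part of macrophages in the differences below was not tested.

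No gene passed the test between treated and uncultured cells. In limma, on log2(CPM + 1) with all 6 libraries in the fit, 0 of 7567 genes (0%) had an adjusted p under 0.05, 1251 had an unadjusted p under 0.05 (220 higher and 1031 lower in treated cells), and the smallest adjusted p was 0.074, shared by 254 genes. The count of 0 depended on the uncultured libraries: without replicate 1 the same test called 456 genes and without replicate 2 it called 468, with the remaining uncultured library assumed to vary like the other groups. Keeping only genes at 10 CPM or more in 2 of the 4 libraries called 274 of 5251 genes, 22 higher and 252 lower.

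Differences are therefore described by the libraries themselves. A gene was counted as apart where both treated libraries lay at least 2-fold above, or below, both uncultured libraries on the scaled log2 values, a rule chosen after it was seen that no gene passed the test. A gene could enter with 1 CPM in the libraries of a single group and then had to differ, for the lists and for all genes alike, so counts over whole lists are given too. By this rule 500 genes (6.61%) were higher and 1617 (21.4%) lower in treated cells. The median difference of all genes was -0.62 on the log2 scale after TMM scaling, -0.46 with CPM as deposited and 0.07 after quantile normalization, so part of the excess of lower genes moves with the scaling. With quantile normalization the shares were 13.1% higher and 14.3% lower. Of 3595 genes at 10 CPM or more in both uncultured libraries, 515 were under 1 CPM in both treated libraries and 443 in both co-cultured libraries. In the other direction, 61 of 2232 genes at 10 CPM or more in both treated libraries were under 1 CPM in both uncultured libraries. In bulk libraries fewer cells of a type and less RNA per cell cannot be told apart.

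**Figure D1:**
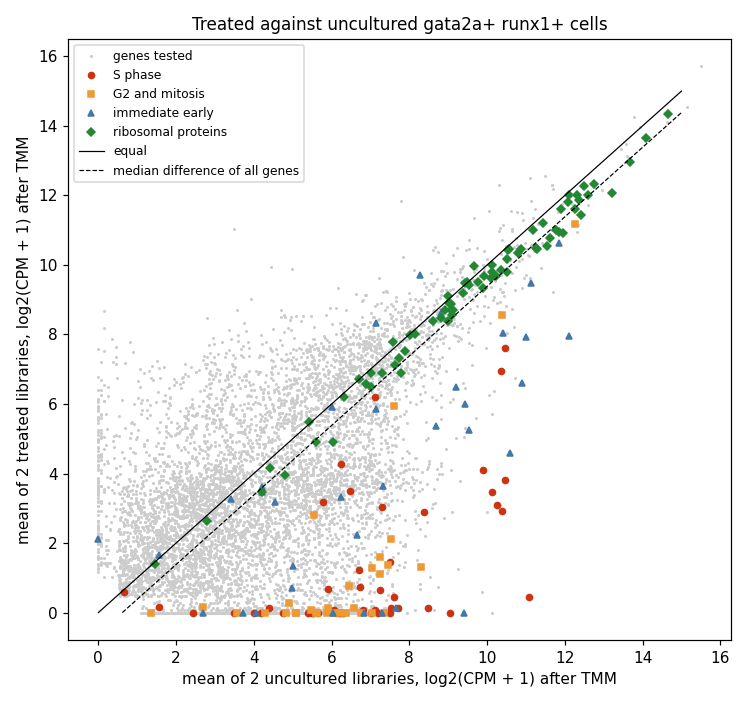
Each point is a gene, placed by its mean log2(CPM + 1) after TMM scaling in the 2 uncultured libraries (x axis) and the 2 treated libraries (y axis); lines show equal values and the median difference of -0.62. Most S phase and mitotic genes lie along the floor of the plot, with tuba8l4 and SMC4 among the exceptions, while ribosomal protein genes follow the diagonal.

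Genes of DNA replication were lower in treated cells almost throughout. Of 54 S phase genes 46 were tested, and 41 of these (89.1%, against 21.4% of all genes) had both treated libraries at least 2-fold below both uncultured, with 0 in the other direction. The median difference over the 46 was -5.89 in treated and -3.57 in co-cultured cells, each against the same uncultured libraries. Counting all 54 genes, 47 and 48 reached 1 CPM in the uncultured libraries, 13 and 11 in the treated libraries, and 17 and 26 did so after co-culture. The summed level of the list was 18420 and 11970 CPM uncultured, 2298 and 5369 CPM co-cultured, and 848.6 and 1058 CPM treated.

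PCNA, the sliding clamp of the replicative polymerases, was at 3249.9 and 1260.2 CPM in the uncultured and at 0.5 and 0.3 CPM in the treated libraries, a log2 difference of -10.63 ± 2.5 (SE, n = 2 against 2; limma adjusted p = 0.113). The co-cultured libraries were at 2.3 and 571.1 CPM, so the replicates there lay far apart. MCM5, a subunit of the replicative helicase, was at 985.5 and 246.3 CPM uncultured, 211.4 and 575.4 CPM co-cultured, and listed at 0 in both treated libraries (limma adjusted p = 0.074). RPA2, of the single-strand binding complex, was at 184.4 and 206.1 CPM uncultured, 134.7 and 162.3 CPM co-cultured and 0.1 CPM in each treated library (-7.58 ± 1.1, limma adjusted p = 0.074). In co-culture without the agents MCM5 overlapped the uncultured range and RPA2 lay just under it, and with the agents both were at or near 0. TYMS, which makes thymidylate, showed another order: 307.9 and 362.1 CPM uncultured, 0 and 0.4 CPM co-cultured, and 0 and 0.2 CPM treated. The 5 tested members outside the 2-fold rule were FEN1, pold3, RFC1, RFC3 and CHAF1B, named after their values were seen. CHAF1B, for instance, was at 0 and 134.4 CPM in the treated libraries, on both sides of 112.6 and 60.3 CPM uncultured.

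**Figure D2:**
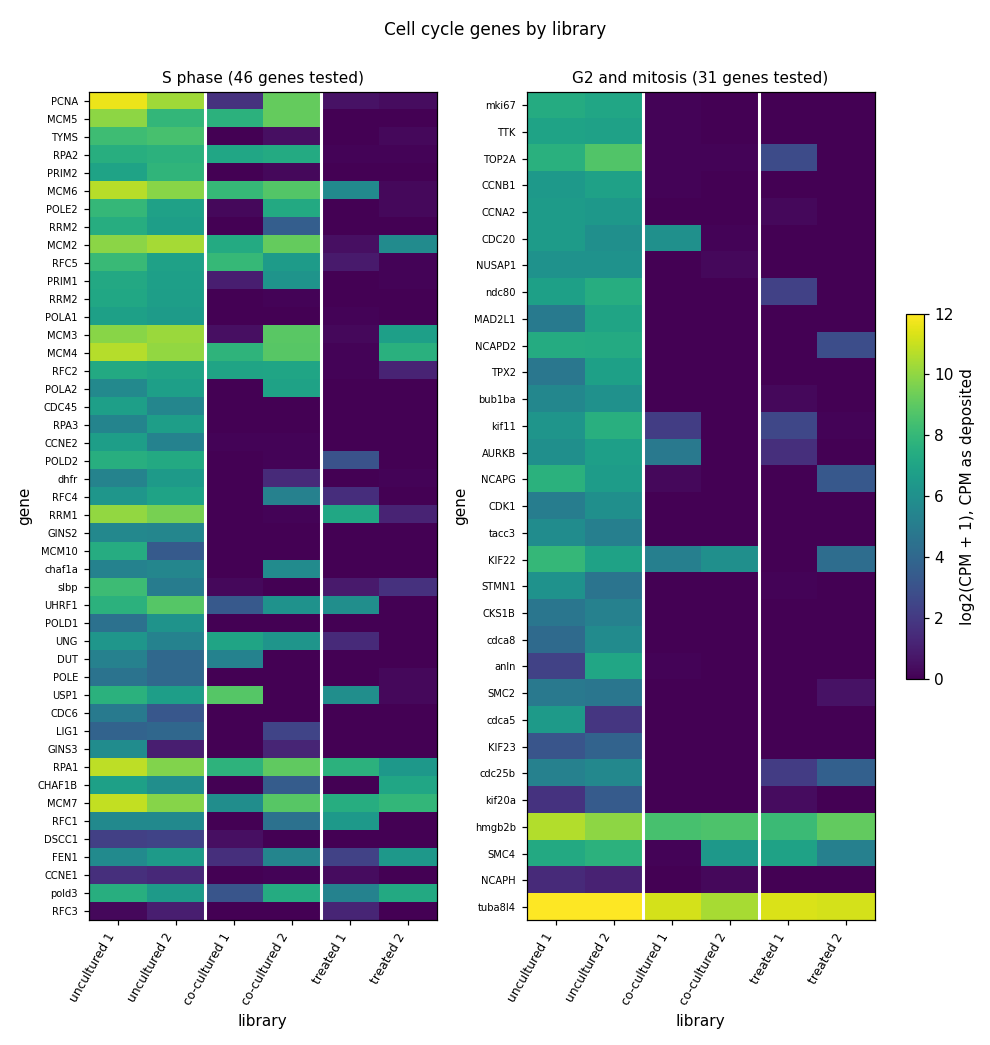
Log2(CPM + 1) of every tested S phase (46) and mitotic (31) gene in each of the 6 libraries, with genes ordered by the treated minus uncultured difference and white lines between groups. For most genes the 2 uncultured columns are bright and the treated columns dark, and co-cultured replicate 2 shows more S phase genes than replicate 1.

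Chromatin and methylation genes that accompany replication had wide gaps too. RBBP4, a histone chaperone subunit, was at 986.5 and 780 CPM uncultured, 413.8 and 175.9 CPM co-cultured and 1 and 0.2 CPM treated (-9.28 ± 0.93, limma adjusted p = 0.074). DNMT1, the maintenance DNA methyltransferase, was at 388.8 and 350.3 CPM uncultured and at 0 and 0.1 CPM treated. HMGN2, a nucleosome-binding protein, was at 998.6 and 1160.3 CPM uncultured and 84.1 and 93.6 CPM treated (-3.79 ± 0.52, limma adjusted p = 0.074). All 3 genes were thus picked with the treated libraries below the uncultured ones, so that order is no separate result. Both co-cultured libraries were also below both uncultured ones in each.

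Mitotic genes followed the same direction. Of 53 genes of G2 and mitosis 31 were tested. At least 2-fold lower in both treated libraries were 29 (93.5%, against 21.4% of all genes), with 0 higher. The median was -5.61 in treated and -5.54 in co-cultured cells. Over all 53 genes, 36 and 36 reached 1 CPM in the uncultured libraries, 8 and 7 in the treated libraries, and 7 and 5 did so after co-culture. The proliferation marker mki67 was at 163.8 and 138.1 CPM uncultured and listed at 0 in both treated libraries. CCNB1, the mitotic cyclin B, was at 85.9 and 116.6 CPM uncultured and listed at 0 in both treated libraries, as was TTK, a spindle checkpoint kinase, from 125 and 117.2 CPM. CCNA2, cyclin A, was at 93.9 and 82.6 CPM uncultured and at 0.2 and 0 CPM treated. These 4 genes had a limma adjusted p of 0.074 each, and none exceeded 0.1 CPM in either co-cultured library. The 2 members outside the rule, named after their values were seen, were the condensin gene SMC4, at 157.2 and 205.4 CPM uncultured and 118.5 and 35.9 CPM treated, and the tubulin gene tuba8l4, at 4983.4 and 4244.4 CPM and 2563.7 and 2429.1 CPM.

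The genes that hold cells in G1 did not run the opposite way as a group. Of 19 tested genes of G1 arrest and the p53 response, 1 was apart above and 4 below (21.1%, against 21.4% of all genes). The inhibitor cdkn1a, a p53 target, was at 51.2 and 52.8 CPM uncultured and was listed at 0 in both co-cultured and both treated libraries (limma adjusted p = 0.074). The others below were BTG2, GADD45B (ENSDARG00000027744) and BAX, and the member above was fas, a death receptor gene, listed at 0 uncultured and at 1.6 and 1.5 CPM treated. CDKN1B (ENSDARG00000054271), the inhibitor p27, was at 19.9 and 19.8 CPM uncultured and 58 and 17.1 CPM treated, with overlapping groups. BTG2, an antiproliferative gene that is also an immediate early gene, was at 1269.9 and 1252.3 CPM uncultured, 12 and 19.1 CPM co-cultured and 200.8 and 394.4 CPM treated (-2.36 ± 0.70, limma adjusted p = 0.176).

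**Figure D3:**
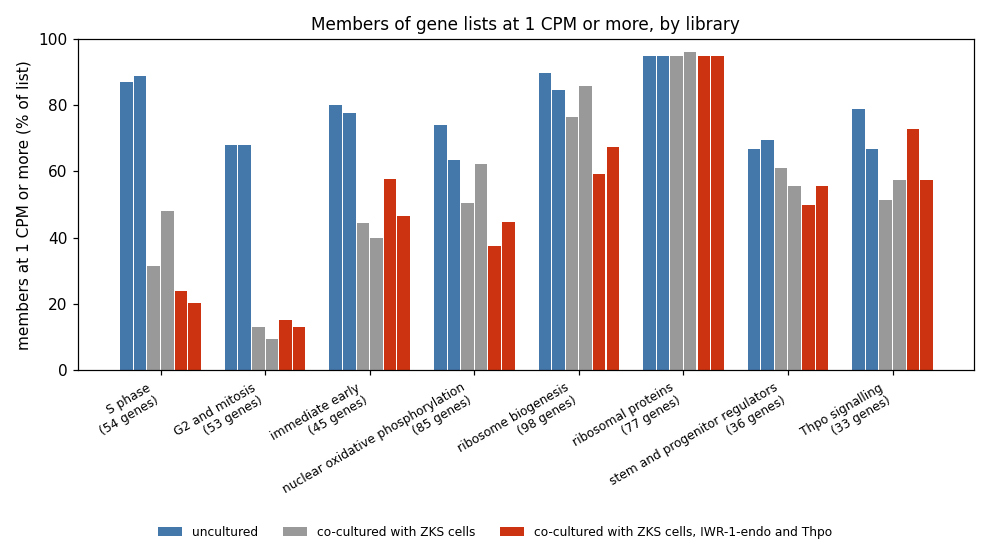
Bars give, for each of the 6 libraries, the share of a list's genes at 1 CPM or more (y axis, percent of all genes on the list). The S phase and mitotic bars are tall in the 2 uncultured libraries and short in the treated ones, 47 and 48 against 13 and 11 of 54 S phase genes, whereas the ribosomal protein bars are level.

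Immediate early genes, which are transcribed within minutes of a stimulus, were also lower for the most part. Of 45 genes 35 were tested. At least 2-fold lower in both treated libraries were 21 (60%, against 21.4% of all genes), and 1 was higher (2.86%, against 6.61%). Over all 45 genes, 36 and 35 reached 1 CPM uncultured, 20 and 18 co-cultured, and 26 and 21 treated. The list summed to 21230 and 21390 CPM uncultured, 3663 and 2554 CPM co-cultured and 7627 and 5651 CPM treated, and its median difference was -3.07 in treated and -3.94 in co-cultured cells. NR4A1, an orphan nuclear receptor, was at 487.5 and 824.6 CPM uncultured, 0.1 and 0 CPM co-cultured and listed at 0 in both treated libraries. The phosphatase gene DUSP2 was at 125.7 and 279.8 CPM uncultured and 0.1 CPM in each treated library. EGR3 was at 114.5 and 184.5 CPM and FOSB at 120.5 and 91.8 CPM uncultured, and both transcription factor genes were listed at 0 in the treated libraries. All 4 had a limma adjusted p of 0.074.

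Other members kept an intermediate level in the treated libraries. FOS, of the AP-1 complex, was at 2134.9 and 1706.2 CPM uncultured, 0.9 and 0.3 CPM co-cultured and 452.2 and 150.7 CPM treated (-3.07 ± 0.91, limma adjusted p = 0.176). DUSP1 was at 3555.8 and 3318.4 CPM uncultured, 9.4 and 77.5 CPM co-cultured and 1507.1 and 1900.2 CPM treated, and egr1 at 589.1 and 508.8, 22 and 0, and 151.9 and 60.4 CPM in the same order. In these 3 genes the treated libraries lay between the uncultured and the co-cultured ones without overlap. The 2 JUNB copies varied between treated replicates, ENSDARG00000074378 at 1.8 and 226.9 CPM and ENSDARG00000104773 at 930.8 and 10.5 CPM, against 1237.1 to 1815.1 CPM uncultured. IER5L was the only member apart in the other direction, listed at 0 in both uncultured libraries and at 1.4 and 7.8 CPM treated. ZFP36L1 (ENSDARG00000016154), an mRNA decay factor, was at 369.2 and 229.3 CPM uncultured, 175.5 and 356.4 CPM co-cultured and 811.1 and 1003.2 CPM treated, which after TMM scaling left the nearest libraries 0.92 apart on the log2 scale, just short of 2-fold.

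Genes of oxidative phosphorylation were lower for the most part. Of 85 nuclear genes of oxidative phosphorylation 60 were tested, and 26 (43.3%, against 21.4% of all genes) were at least 2-fold lower in both treated libraries and 1 higher. The median was -2.87 in treated cells and -0.76 in co-cultured cells, beside -0.62 and -0.75 over all genes. Among genes above 0 in all 4 libraries the treated median was -1.19, with 7 members apart below. Over all genes kept by that filter the median was -0.14 and 9.84% were apart below. Of all 85 genes, 63 and 54 reached 1 CPM uncultured, 43 and 53 co-cultured, and 32 and 38 treated. The list summed to 8680 and 8358 CPM uncultured, 7462 and 7342 CPM co-cultured and 4717 and 4905 CPM treated. SDHA, the catalytic subunit of complex II, was at 438 and 321 CPM uncultured, 231.4 and 397.6 CPM co-cultured and 7.3 and 9.8 CPM treated (-5.50 ± 0.81, limma adjusted p = 0.074). ATP5MG, an ATP synthase subunit, was at 38.4 and 84.2 CPM uncultured, 39.1 and 142.1 CPM co-cultured and listed at 0 in both treated libraries. For both genes the co-cultured libraries overlapped the uncultured ones and the treated libraries stood apart from both. The cytochrome c gene cycsb was at 69.2 and 57.1 CPM uncultured and 0 and 0.5 CPM treated, but at 0 and 115 CPM co-cultured, and the cytochrome oxidase gene cox4i1l, at 51.6 and 127.3 CPM uncultured, was listed at 0 in all 4 cultured libraries. UQCRFS1, the Rieske protein of complex III, was the only member apart in the other direction, at 50.6 and 42 CPM uncultured and 194.4 and 221.4 CPM treated (1.94 ± 0.85, limma adjusted p = 0.344).

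The share of members apart below was similar for transcripts of the mitochondrial genome, none of which was listed at 0 in these 6 libraries. All 13 were tested, 6 (46.2%, against 21.4% of all genes) were at least 2-fold lower in both treated libraries, and their median difference was -1.38 in treated cells and -0.01 in co-cultured cells. They summed to 26580 and 26490 CPM uncultured, 29550 and 34390 CPM co-cultured and 18610 and 20020 CPM treated. MT-ATP6 was at 1599.7 and 1476.3 CPM uncultured, 1291.3 and 1630.8 CPM co-cultured and 449.8 and 222.6 CPM treated (-2.48 ± 0.42, limma adjusted p = 0.074). MT-ND4, of complex I, was at 2699.5 and 2352.8 CPM uncultured, 2516.3 and 2571.6 CPM co-cultured and 910 and 1184.4 CPM treated (-1.48 ± 0.23, limma adjusted p = 0.074). Both genes separated the treated libraries from the other 4. MT-CO1, of complex IV, did not separate the groups, at 10287.1 and 10569.9 CPM uncultured, 15151.4 and 16846.9 CPM co-cultured and 10503.3 and 11769.3 CPM treated, and its small difference of -0.11 turned to 0.09 with CPM as deposited. The count of 6 became 3 of 13 with CPM as deposited, close to the 20.3% of all genes under that scaling. After quantile normalization it was 4 of 13, against 14.3% of all genes.

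Antioxidant genes differed one by one. Of 28 tested genes 5 were apart below (17.9%) and 2 above, close to the shares of all genes. GPX4, which detoxifies lipid peroxides, was at 128.3 and 125.2 CPM uncultured, 276.8 and 487.2 CPM co-cultured and 0.3 and 0.8 CPM treated (-6.51 ± 1.06, limma adjusted p = 0.074). The treated libraries were thus low while both co-cultured libraries were above both uncultured ones. The catalase gene CAT was at 74 and 60.9 CPM uncultured and the superoxide dismutase gene SOD1 at 62.4 and 72.2 CPM, and both were listed at 0 in the 2 treated libraries. In the co-cultured libraries CAT was at 31.3 and 137 CPM and SOD1 at 99.5 and 53.1 CPM, overlapping the uncultured values. SOD2 and PRDX4 were the other members apart below, at 51.9 to 138.2 CPM uncultured and 0.2 to 6 CPM treated. The 2 members apart above were GCLC, of glutathione synthesis, at 64.4 and 49 CPM uncultured and 161.6 and 346 CPM treated, and the cystine transporter slc7a11, listed at 0 uncultured and at 12.7 and 6.2 CPM treated.

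**Figure D4:**
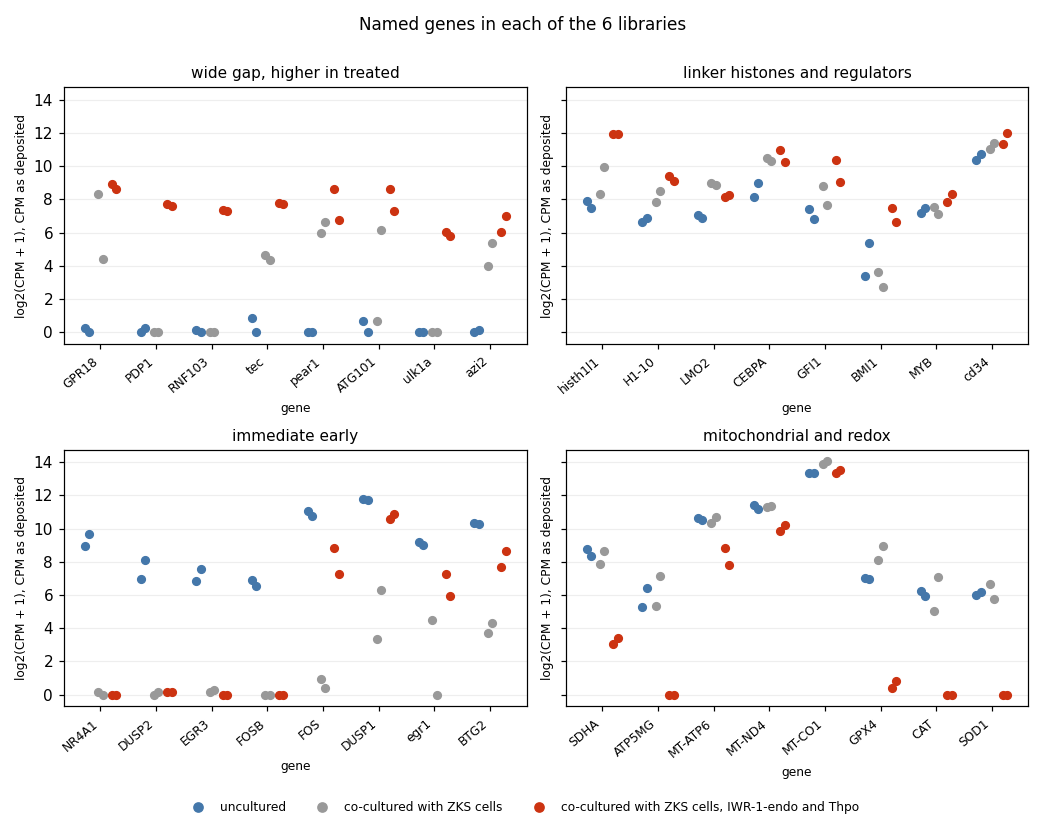
Log2(CPM + 1), with CPM as deposited, of named genes in the 6 libraries, each dot being 1 library. NR4A1 is near 0 in all 4 cultured libraries, GPX4, CAT and SOD1 are near 0 only in the 2 treated libraries among these 6, and PDP1, RNF103 and ulk1a are above 50 CPM only in the treated ones.

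Ribosome assembly and ribosomal protein genes are given side by side, and a difference between the lists was not tested. In a list of 98 ribosome biogenesis genes, assembled after values were seen, 85 were tested, 24 (28.2%, not far from the 21.4% of all genes) were apart below and 1 above, and the median was -2.15 treated and -0.54 co-cultured. Of the 98 genes, 88 and 83 reached 1 CPM uncultured, 75 and 84 co-cultured, and 58 and 66 treated. The summed level differed little, at 17980 and 17350 CPM uncultured, 17190 and 17810 CPM co-cultured and 15120 and 16830 CPM treated. BYSL, needed for the small subunit, was at 368.5 and 224.9 CPM uncultured, 106.7 and 159.1 CPM co-cultured and 0 and 1.6 CPM treated. PPAN, needed for the large subunit, was at 100.3 and 113.5 CPM uncultured, 291.9 and 262.3 CPM co-cultured and 0 and 0.1 CPM treated. The nucleolar gene pdcd11 was at 107.9 and 201.8, 189.1 and 150.9, and 0.1 and 0 CPM in the same order, and NIFK at 163.2 and 184.5, 193.1 and 144.7, and 0.6 and 0.9 CPM. All 4 had a limma adjusted p of 0.074, and all 4 were over 100 CPM in both co-cultured libraries. RSL24D1, also of large subunit assembly, was the only member apart in the other direction: 1006.1 and 976 CPM uncultured, 1670.7 and 1969.9 CPM co-cultured and 3294.8 and 3171.4 CPM treated (1.5 ± 0.22, limma adjusted p = 0.074).

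Of 73 ribosomal protein genes tested, 1 was apart, RPL4, at 8999.9 and 8834 CPM uncultured and 4341.4 and 4882 CPM treated (-1.16 ± 0.27, limma adjusted p = 0.106). The median over the 73 was -0.36, above the -0.62 of all genes, and 73 of the 77 on the list reached 1 CPM in each treated and each uncultured library. Translation factors had 5 of 50 (10%, against 21.4% of all genes) apart below, 0 above and a median of -0.71. These 5 were the elongation factor genes eef2a.1, eef2a.2 and EEF1A1 (ENSDARG00000039502) and the initiation factor genes EIF3B (ENSDARG00000059654) and EIF3H (ENSDARG00000102452), and EIF3H, for instance, was at 585.1 and 653.6 CPM uncultured, 1029.9 and 865.2 CPM co-cultured and 228.3 and 46 CPM treated. Genes of the ER and its stress response summed to 8066 and 10110 CPM uncultured, 6535 and 5118 CPM co-cultured and 6876 and 7267 CPM treated. Of 30 tested, 10 (33.3%, against 21.4% of all genes) were apart below. Among these the chaperone gene DNAJB9 (ENSDARG00000052072) was at 118.2 and 72.1 CPM uncultured and listed at 0 treated, and DDIT3, the stress transcription factor CHOP, at 101.5 and 98.7 CPM and at 4.7 and 0 CPM. SEC61B, a translocon subunit and the only member apart above, was at 0 and 42.6 CPM uncultured and 168.8 and 139.5 CPM treated.

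**Figure D5:**
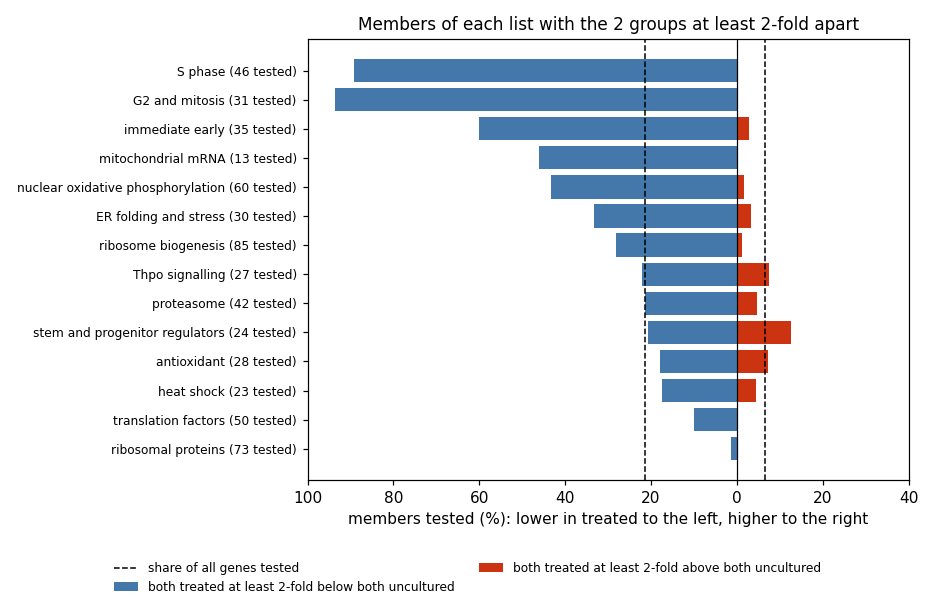
Share of each list's tested genes with both treated libraries at least 2-fold below (left) or above (right) both uncultured libraries; dashed lines mark the shares of all 7567 genes, 21.4% and 6.61%. The S phase and mitotic lists reach 89.1% and 93.5% on the left, and the ribosomal proteins 1.37%.

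Stem and progenitor regulators were spread over both directions. Of 36 genes 24 were tested, 5 were apart below (20.8%, near the 21.4% of all genes) and 3 above (12.5%, against 6.61%). The median of the list was 0.43 treated and -0.51 co-cultured, beside -0.62 and -0.75 over all genes. The list summed to 9845 and 11770 CPM uncultured and 15410 and 12800 CPM treated. The 3 above were the C/EBP factor CEBPA, the repressor GFI1 (ENSDARG00000044457) and the Polycomb gene BMI1 (ENSDARG00000006010). CEBPA, a driver of myeloid differentiation, was at 277.8 and 508.1 CPM uncultured, 1409.9 and 1266.7 CPM co-cultured and 2005.2 and 1219.3 CPM treated (1.85 ± 0.43, limma adjusted p = 0.111). GFI1, which in mice restrains stem cell cycling and directs granulocyte fate, was at 170.4 and 111.7 CPM uncultured, 444.9 and 203.7 CPM co-cultured and 1345.2 and 533.4 CPM treated (2.41 ± 0.68, limma adjusted p = 0.161). BMI1, needed in mice for stem cell self-renewal, was at 9.3 and 39.6 CPM uncultured, 11.3 and 5.6 CPM co-cultured and 175.8 and 96.7 CPM treated (2.49 ± 1.33, limma adjusted p = 0.453). For CEBPA and GFI1 both co-cultured libraries were also above the uncultured ones, whereas for BMI1 they lay within or below the uncultured range. The related gene gfi1aa was at 0.1 and 1 CPM uncultured, 516 and 358.5 CPM co-cultured and 141.8 and 0 CPM treated. Its treated and uncultured values overlapped.

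The 5 below were RUNX1, ERG, egr1, SPI1 and spi1a. ERG, an ETS factor of stem cells, was at 254.3 and 102.1 CPM uncultured, 0.2 and 165.2 CPM co-cultured and 0 and 4.7 CPM treated (limma adjusted p = 0.332). SPI1 and spi1a, the copies of the myeloid factor PU.1, rested on uncultured replicate 2, the library with the macrophage markers: SPI1 was at 1 and 71.7 CPM and spi1a at 2.4 and 82.3 CPM uncultured, and both were listed at 0 treated. Several regulators, named after their values were seen, were higher in both treated libraries by less than 2-fold between the nearest libraries after TMM scaling. LMO2 was at 133 and 117.1 CPM uncultured and 285.4 and 300 CPM treated, FLI1 at 1481 and 1108.4 CPM and 2102.9 and 2797.4 CPM, and TAL1 at 204.6 and 74.5 CPM and 298.1 and 326.1 CPM. MEIS1 (ENSDARG00000012078) was at 245.3 and 280.3 CPM uncultured and 546.5 and 568.7 CPM treated. The sialomucin gene cd34 was at 1300.7 and 1673.7 CPM uncultured, 2093.3 and 2639.4 CPM co-cultured and 2563.6 and 4000 CPM treated (0.91 ± 0.33, limma adjusted p = 0.252). In LMO2, FLI1, TAL1, MEIS1 and cd34 every treated value exceeded every uncultured value, and so did every co-cultured value. These genes do not stand for the list, in which 11 of the 24 tested members had a negative difference. IKZF1 and MYB were also higher in both treated libraries, but their co-cultured values overlapped the uncultured ones. CBFB went the other way, at 135.9 and 178.4 CPM uncultured and 108.7 and 82.6 CPM treated. CEBPB, another C/EBP factor, was at 3762.8 and 5930.9 CPM uncultured, 308 and 522.6 CPM co-cultured and 3506.8 and 1269 CPM treated.

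The ligand gene thpo was listed at 0 in every one of these libraries and in both ZKS libraries. Of 33 genes of Thpo signalling 27 were tested, 6 were apart below (22.2%) and 2 above (7.41%), near the shares of all genes, and the median was -0.42. SOCS3 genes, feedback inhibitors induced by STAT factors, were among the lower ones. The copy ENSDARG00000025428 was at 3634.8 and 4597.2 CPM uncultured, 10.1 and 209.2 CPM co-cultured and 295 and 239.9 CPM treated (-4.14 ± 1.39, limma adjusted p = 0.226). The copy ENSDARG00000026611 was at 342 and 429.4 CPM uncultured, 488.1 and 128.3 CPM co-cultured and 62.5 and 30 CPM treated (-3.32 ± 0.87, limma adjusted p = 0.136). Both copies separated treated from uncultured libraries, but only the first was lower in both co-cultured ones. BCL2L1, which encodes the survival protein Bcl-xL, was at 109.4 and 13.6 CPM uncultured, 74.5 and 19.8 CPM co-cultured and listed at 0 in both treated libraries. The phosphatase ptpn11b, the ubiquitin ligase CBL and the kinase pim2 made up the 6. The kinase gene pim2 was at 711.6 and 442.4 CPM uncultured and 148.7 and 125 CPM treated, ptpn11b at 25.9 and 47.2 CPM and 3 and 0.1 CPM, and CBL at 19 and 3.9 CPM with 0 in all cultured libraries.

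PIM1, a kinase gene induced by STAT5, was at 1120.7 and 1307.5 CPM uncultured, 497.9 and 533.4 CPM co-cultured and 696.1 and 655.7 CPM treated (-1.05 ± 0.32, limma adjusted p = 0.181). The STAT5 target CISH did not separate, at 35.4 and 107 CPM uncultured, 0 CPM in both co-cultured libraries, and 133.4 and 0 CPM treated. In stat5a, stat5b, STAT3, SOCS1, JAK2, TYK2, PIM3, mcl1a, mcl1b, GAB2 and the MYC copy ENSDARG00000045695 the groups overlapped as well. The kinase gene jak2a was at 89.7 and 97 CPM uncultured and 0 and 50.6 CPM treated, and the MYC copy ENSDARG00000007241 at 214 and 300.4 CPM and 0.1 and 124.8 CPM. The phosphatase PTPN11 was at 10.8 and 27.1 CPM uncultured and 96.9 and 46 CPM treated, the adaptor SHC1 at 60.8 and 72.8 CPM and 126.3 and 303.5 CPM, and PTPN6 at 86.8 and 126.1 CPM and 116.7 and 373.4 CPM. Of these, SHC1 and PTPN11 were higher in both treated libraries and jak2a and the second MYC copy lower, each by less than 2-fold between the nearest libraries after TMM scaling.

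Thrombocyte genes, the lineage that Thpo supports, were few. Of 16 markers 8 were tested, 2 were apart below (25%) and 1 above (12.5%), against 21.4% and 6.61% of all genes. The list summed to 598.5 and 673.8 CPM uncultured, 550.9 and 374.8 CPM co-cultured and 1068 and 991.9 CPM treated. The sum was thus higher in both treated libraries while the median difference was -1.59. Most of the treated sum lay in PLEK, FERMT3 (ENSDARG00000030938) and clec14a. PLEK was at 159.1 and 271.3 CPM uncultured and 444.6 and 284.2 CPM treated, and FERMT3 at 255.2 and 83.7 CPM and 129.3 and 574 CPM. NFE2 was at 85.4 and 96.5 CPM uncultured and 213.4 and 0.1 CPM treated, and GP1BB at 18.7 and 59.9 CPM and 84.5 and 0 CPM. The integrin gene itga2b, which marks thrombocytes and early stem cells in zebrafish, was at 36.9 and 63.5 CPM uncultured and listed at 0 in all 4 cultured libraries (limma adjusted p = 0.074). The von Willebrand factor gene vwf was at 36.4 and 42.6 CPM uncultured, 0.1 and 91.5 CPM co-cultured and listed at 0 in both treated libraries. Higher in the treated libraries was clec14a, which is also an endothelial gene, at 0.4 and 39.6 CPM uncultured and 196.4 and 121.8 CPM treated.

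Few Wnt target genes were detected in any of these cells. Of 26 targets 6 were tested, with 0 apart in either direction. AXIN2 and TCF7 were listed at 0 in all 6 libraries, and LEF1 was listed at 0 in all but treated replicate 2, where it was at 4.6 CPM. A lower level of AXIN2 in the presence of the inhibitor was therefore not detectable in these files. NKD1, a Wnt-induced inhibitor, was at 3.4 and 0 CPM uncultured, 32.8 and 6.6 CPM co-cultured and 0.4 and 111.1 CPM treated. CCND1, cyclin D1, was at 75.2 and 76.5 CPM uncultured, 173.8 and 198.7 CPM co-cultured and 114.5 and 102.4 CPM treated, higher in both treated libraries by less than 2-fold. The adhesion gene cd44b was at 203.1 and 303 CPM uncultured and 229.8 and 42.2 CPM treated, and JUN at 253.7 and 87.2 CPM and 172.5 and 0 CPM. In CPM as deposited the groups overlapped in both genes. After TMM scaling both treated values of cd44b were lower, with the nearest libraries only 0.03 apart on the log2 scale. The other 2 tested targets are the MYC copies above.

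Among 16 tested genes of the Wnt pathway itself, 1 was apart above (6.25%) and 2 below (12.5%), against 6.61% and 21.4% of all genes. The receptor gene FZD2 was listed at 0 in all uncultured and co-cultured libraries and was at 220.9 and 24.2 CPM treated (limma adjusted p = 0.103). FZD2 was also at 258.62 and 229.03 CPM in the ZKS libraries, and whether any of it came from stroma was not tested. The receptor gene fzd6 was at 33.7 and 28.5 CPM uncultured and listed at 0 in all 4 cultured libraries. GSK3A (ENSDARG00000015681), a kinase of the beta-catenin destruction complex, was at 175.9 and 221.8 CPM uncultured, 353.3 and 140.9 CPM co-cultured and 0 and 6.1 CPM treated (limma adjusted p = 0.085). CTNNB1, which encodes beta-catenin, was at 701.3 and 256.3 CPM uncultured and 886.1 and 507.5 CPM treated, and AXIN1 at 71.7 and 0.2 CPM and 143.1 and 1.1 CPM, both with overlapping groups.

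Histone genes went both ways. In a list assembled after values were seen, 3 of 10 tested genes were apart above (30%, against 6.61% of all genes) and 0 below, while 7 of the 10 had a negative difference and the median was -0.82. Among those apart above were the linker histone genes histh1l1 and H1-10. The gene histh1l1 was at 237.2 and 176 CPM uncultured, 315.4 and 992.4 CPM co-cultured and 3940.1 and 3879.1 CPM treated (4.05 ± 0.62, limma adjusted p = 0.074). H1-10 was at 97.5 and 118 CPM uncultured, 229.5 and 362.8 CPM co-cultured and 682 and 545.3 CPM treated (2.29 ± 0.56, limma adjusted p = 0.117). In both genes the treated libraries were highest, the co-cultured libraries were above the uncultured ones, and neither cultured group overlapped the uncultured group. The lower members included the H3.3 genes h3f3a and h3f3b.1. The first was at 549.6 and 573.5 CPM uncultured, 288.8 and 234.2 CPM co-cultured and 266.3 and 396.7 CPM treated (-0.99 ± 0.47, limma adjusted p = 0.386), and the second at 177.7 and 78.4, 59.7 and 37.4, and 156 and 1.9 CPM in the same order. For h3f3a both treated libraries were below both uncultured ones, and for h3f3b.1 the groups overlapped.

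The widest gaps upward, among genes with a symbol, were in 15 genes listed at 0 to 0.8 CPM in the uncultured libraries. GPR18, a G protein-coupled receptor gene of leukocytes, was at 319.8 and 20.6 CPM co-cultured and 489.7 and 387.5 CPM treated. The genes PDP1, a pyruvate dehydrogenase phosphatase, and RNF103, a ubiquitin ligase of the ER, were listed at 0 in both co-cultured libraries, and in the treated ones PDP1 was at 206.2 and 191.3 CPM and RNF103 at 161.1 and 154 CPM. The autophagy kinase gene ulk1a was listed at 0 in all uncultured and co-cultured libraries and was at 64.7 and 54.5 CPM treated. ATG101, which encodes a partner of that kinase, was at 0.6 and 70.4 CPM co-cultured and 394.6 and 157.4 CPM treated. Like all 15 genes, ulk1a and ATG101 were picked for lying above both uncultured libraries, so that order is no separate result. Their limma adjusted p was 0.074 and 0.171, and no list of autophagy genes was counted. The kinase gene tec was at 23.6 and 19.2 CPM co-cultured and 218.6 and 208.4 CPM treated, and the receptor gene pear1 at 61.3 and 99.1 CPM and 390.3 and 108 CPM. The remaining 8 were zgc:194659, si:dkey-228i19.34, si:dkey-100n23.3, si:ch73-103b11.2, si:ch211-230g15.5, tdh2, LXN and azi2. Of the 15, PDP1, RNF103, ulk1a and si:ch73-103b11.2 were listed at 0 in both co-cultured libraries.

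At a high level in all libraries, CAPRIN1 (ENSDARG00000054272), an RNA-binding protein gene named after its values were seen, was at 2368.5 and 1777.3 CPM uncultured, 1842.4 and 2176.6 CPM co-cultured and 5705.9 and 6728.4 CPM treated (1.39 ± 0.23, limma adjusted p = 0.074). The treated libraries were above the other 4 and the co-cultured libraries overlapped the uncultured ones.

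The widest gaps downward were also in 15 genes, of which PCNA, NR4A1, RBBP4, DNMT1, TYMS, MCM5, RPA2 and mki67 are described above. TEX10, whose product takes part in ribosome assembly, was at 222.1 and 311.3 CPM uncultured, 32 and 151.5 CPM co-cultured and 0.1 and 0 CPM treated. The spindle motor gene kif15 was at 272.6 and 194.5 CPM uncultured, 0 and 6 CPM co-cultured and listed at 0 treated. JDP2 (ENSDARG00000020133), a repressor of AP-1, was at 346 and 451.8 CPM uncultured, 0.2 and 2.8 CPM co-cultured and 0.3 and 1.2 CPM treated. The others were TMEM39B, zgc:85936, zgc:112083 and ARRDC3 (ENSDARG00000036028), which were at 144.1 to 220.1 CPM uncultured and at 0 to 0.1 CPM treated.

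Among 11 tested genes of homing and adhesion, 1 was apart above and 1 below (9.09% each, against 6.61% and 21.4% of all genes). CXCR4 (ENSDARG00000041959), the receptor of the niche chemokine Cxcl12, was at 2153.5 and 1463.5 CPM uncultured, 286.3 and 684.1 CPM co-cultured and 865.4 and 559 CPM treated (-1.56 ± 0.56, limma adjusted p = 0.252). The ITGB1 copy ENSDARG00000053232, an integrin beta chain, was at 0 and 0.1 CPM uncultured, 0 CPM in both co-cultured libraries, and 32.7 and 17.7 CPM treated (4.47 ± 0.81, limma adjusted p = 0.074). CXCR4 was lower in all 4 cultured libraries than in either uncultured one, and the ITGB1 copy was above 1 CPM in the treated libraries alone among these 6.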

How the data were processed

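The authors deposited 1 table per library for 32047 gene identifiers, of which 28978 had a symbol. The deposited values were read as CPM, reads per gene scaled by the authors to the same total in every library, from their sums, since the file headers name no unit. Whether gene length was divided out is not stated, so levels were not compared between genes. HISAT2 2.1.0, Subread 1.6.4 and GRCz11 are named in the submitters' processing notes. No step of 1 read was readable, so depth is unknown and no intervals are given.

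Genes with at least 1 CPM in 2 of the 4 libraries (7567) were tested with limma 3.58.1 in R 4.3.3 on log2(CPM + 1) after TMM scaling, which understates changes of low genes. All 6 libraries entered the fit, which left 3 residual degrees of freedom. Two-sided p-values were adjusted by the method of Benjamini and Hochberg, with a threshold of 0.05; an exact permutation test of 2 against 2 cannot go below 0.333. SEs are those of limma. Reads of near-identical copies may have been split.

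The libraries and gene lists were chosen with earlier results of these data known. Named genes are the sort genes, tested Thpo signalling and Wnt target genes, the 15 widest gaps between the groups in each direction and the widest gaps of each list; other genes were named after their values were seen. A few genes are not reported here. No coordinates or sequences are given, because no annotation of the build of the files was used.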

Additional observations from a re-analysis of the deposited data

How the results depend on the processing

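The count of called genes was 0 under pseudocounts of 0.5 and 5, no filter, values above 0 in all 4 libraries, CPM as deposited, quantile normalization, the 4 libraries alone and no trend. It was 274 with a filter of 10 CPM, and 0 to 468 when 1 library was left out. Replicate numbers did not pair the libraries (correlations of deviations -0.003 to -0.008), and with the replicate block 0 genes were called, 1135 had an unadjusted p under 0.05, and the smallest adjusted p was 0.195. For the list counts and medians, CPM as deposited, quantile normalization and values above 0 in all 4 libraries were listed with the test, with earlier results of these data known, and the 2-fold rule and the other reruns were added after seeing the data.

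The median of the S phase list was -6.60 and -3.97 with pseudocounts of 0.5 and 5, -5.50 with no filter, -6.07 with a filter of 10 CPM, -5.72 with CPM as deposited and -5.49 after quantile normalization. For the mitotic list it was -6.31 and -3.65 with the same pseudocounts, -4.72 with no filter and -5.21 after quantile normalization. For oxidative phosphorylation it was -1.59 with a pseudocount of 5, -2.22 with no filter and -2.04 after quantile normalization. Keeping only genes above 0 in all 4 libraries, which drops every gene listed at 0 in a treated library, gave medians of -6.60, -2.28 and -1.19 for these lists. The members lower by 2-fold were then 13 of S phase, 3 of mitosis, 12 immediate early and 7 of oxidative phosphorylation. Over all 3994 genes kept by this filter the median was -0.14, and 9.84% were apart below. The number of members each list kept is not given, so these counts are not shares. With 1 library left out the S phase, mitotic, immediate early and oxidative phosphorylation medians ranged from -5.90 to -5.57, -6.07 to -5.28, -3.80 to -2.08 and -2.82 to -2.61, and the counts from 41 to 44, 29 to 31, 22 to 26 and 27 to 32. The 2-fold rule is easier to meet with fewer libraries. Of all genes, 27.6% to 35.2% were then apart below, against 21.4% with all libraries.

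Of 26 named genes out of 162, the log2 difference turned sign in some setting; the cause was not tested. With CPM as deposited and quantile normalization it was 0.09 and 0.19 for MT-CO1, 0.15 and 0.66 for PIM3, 0.00 and 0.61 for RFC3, and 0.09 and 0.20 for mcl1a. Leaving out 1 library gave AXIN1 -2.24 to 3.76, CDKN1B -0.37 to 1.27, CHAF1B -6.46 to 0.53, CISH -6.04 to 0.87, CTNNB1 -0.25 to 1.16, FEN1 -3.97 to 0.06, GAB2 -0.66 to 1.48, GATA2 -3.33 to 1.59, JAK2 -0.36 to 5.48, MMP2 -0.61 to 2.96 and MT-CO1 -0.22 to 0.00. It gave MYC (ENSDARG00000045695) -2.24 to 0.51, NKD1 -0.65 to 5.62, PIM3 -1.35 to 1.25, PTPN6 -0.08 to 1.65, RFC1 -5.76 to 0.55, RFC3 -0.66 to 0.51, SOCS1 -1.61 to 5.01, STAT3 -5.83 to 1.75, gata2b -0.61 to 1.26, h3f3b.1 -5.50 to 0.17, mcl1a -0.38 to 0.16, mcl1b -4.17 to 0.38, pold3 -1.93 to 0.09, stat5a -1.97 to 2.80 and stat5b -0.03 to 4.31.

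Precision is limited by 2 libraries a group, an unknown depth and the 1078 of 5321 genes at 10 CPM in uncultured replicate 1 that were under 1 CPM in replicate 2. No named gene passed the threshold in the fit reported. Under the alternatives any that passed did so only with the filter of 10 CPM or with 1 uncultured library left out. In the latter case a single library stood for the uncultured group.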

Other observations

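Markers of the mature blood lineages were sparse and went in no common direction. EPOR, the erythropoietin receptor gene, was at 20.2 and 7.1 CPM uncultured, 244.4 and 65.3 CPM co-cultured and 61.9 and 232.5 CPM treated, and it was the only 1 of 5 tested erythroid genes apart by 2-fold. Of 9 tested neutrophil genes 1 was apart below and 1 above (11.1% each, against 21.4% and 6.61% of all genes). The higher one, nccrp1, was at 3.1 and 0.8 CPM uncultured and 46.8 and 37.5 CPM treated. The class II invariant chain gene cd74a was at 2883.9 and 3262.1 CPM uncultured, 2942.1 and 4986.5 CPM co-cultured and 6314.3 and 4652.9 CPM treated. TIMP2 (ENSDARG00000061226), an inhibitor of matrix proteases, was at 8.8 and 28.3 CPM uncultured, 110.1 and 95.5 CPM co-cultured and 281.7 and 260.3 CPM treated. The ZKS libraries held TIMP2 at 69.43 and 56.37 CPM, below both treated libraries.

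Protein folding and turnover genes had shares apart near those of all genes. Of 23 tested heat shock genes 4 were apart below (17.4%) and 1 above. The mitochondrial chaperonin gene HSPD1 was at 290.7 and 275.5 CPM uncultured and 0.2 and 113.8 CPM treated, and HSPE1, its partner, at 32.6 and 80.1 CPM uncultured and 0 and 6.6 CPM treated. FKBP4 and AHSA1 (ENSDARG00000028664), which are partners of Hsp90, were the others below. HSF2, a heat shock transcription factor, was at 44.1 and 8.9 CPM uncultured and 138.8 and 185.8 CPM treated. Of 42 tested proteasome genes 9 were apart below (21.4%) and 2 above, and 36 of the 42 had a negative difference, with a median of -1.79 beside -0.62 over all genes. PSMD14, a deubiquitinase subunit of the regulatory particle, was at 117.6 and 206.9 CPM uncultured, 6 and 9.1 CPM co-cultured and 0.2 and 0.4 CPM treated (-7.04 ± 1.41, limma adjusted p = 0.0809). PSMD6, of the same particle, was at 169.3 and 184.7 CPM uncultured, 22.7 and 144.3 CPM co-cultured and 5 and 6.7 CPM treated, and PSMD1 at 434.6 and 390.2, 285.6 and 395.7, and 154.8 and 69.7 CPM in the same order. The other 6 below were PSMA4, PSMA6 (ENSDARG00000013966), PSMB9, PSMD3, PSMD9 and PSMD13. The 2 above were PSMA3, at 44.3 and 45.3 CPM uncultured, 173.3 and 383.7 CPM co-cultured and 136.6 and 149.1 CPM treated, and psmb12, at 13.7 and 51.4, 328.8 and 29.7, and 186.8 and 148.3 CPM. Among 8 tested genes of cholesterol synthesis, HMGCS1 was at 110.4 and 69.8 CPM uncultured and 0 and 0.1 CPM treated.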
